A study of Mus musculus with 5 samples.

Results

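Of the 38924 genes in the deposited table, 83 had a name that marks a nuclear-encoded subunit of the mitochondrial respiratory chain or of ATP synthase. They were chosen by name alone: Ndufa, Ndufb, Ndufc, Ndufs and Ndufv genes for complex I (36 genes), Sdha to Sdhd for complex II (4 genes), Uqcr genes for complex III (8 genes), Cox4 to Cox8 genes for complex IV (18 genes) and Atp5 genes for complex V (17 genes). RNA had been sequenced from germinal center B cells of mouse spleen, which are the B cells that divide and mutate their antibody genes after an antigen is met. The mice were 12 weeks old and had been immunized with sheep red blood cells. The cells, which the series title calls eGFP+, were sorted on day 7. Both groups carried Cg1-Cre, a recombinase driven by the gene segment of the IgG1 heavy chain, which B cells switch on around entry into the germinal center. In the DKO group (2 libraries) both relb and nfkb2 were also flanked by loxP sites (relbfl/flnfkb2fl/flCg1-Cre), and the WT group (3 libraries) was Cg1-Cre littermates. The labels do not say that the libraries came from separate mice, so the p-values below measure the spread between these libraries.

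Oxidative phosphorylation is the main source of ATP in most aerobic cells. Complexes I and II take electrons from NADH and succinate and hand them to ubiquinone, complex III passes them to cytochrome c, and complex IV gives them to oxygen. Complexes I, III and IV pump protons as they do so, and complex V, the ATP synthase, lets the protons back through a rotating ring of c subunits to make ATP. Most subunits come from nuclear genes, and a few of complexes I, III, IV and V are made from the mitochondrial genome. Germinal center B cells divide fast and are known to carry out oxidative phosphorylation. RELB with the p52 product of Nfkb2 forms the main dimer of the alternative NF-κB pathway.

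Library totals ran from 33953377 to 57582464 reads, of which mitochondrial ribosomal RNA took 47.0 to 70.9%. Genes outside the mitochondrial genome kept 15.4 to 17.7 M reads per library. The targeted genes checked the labels. Relb was at 136, 171 and 117 normalized counts (reads divided by a factor per library) in WT replicates 1 to 3 and at 56.9 and 10.7 in DKO replicates 1 and 2. Nfkb2 was at 657, 601 and 445 in the WT libraries against 298 and 73.5 in DKO, so DKO replicate 1 kept more of both transcripts than DKO replicate 2. Their log2 fold changes were -2.43 ± 0.63 (SE) and -1.91 ± 0.51, with an adjusted p of 0.823 each (limma). The germinal center list (9 of 9 genes with reads) summed to between 44421 and 64954 in WT and to 49539 and 50019 in DKO. The naive B cell list (8 of 8 genes with reads) stood at 28633 in WT replicate 2 and 25778 in DKO replicate 1, against 9563 to 12842 in the other 3 libraries. T cell markers (15 of 15 with reads) summed to 2735 and 2162 in the same 2 libraries and to 1364 to 1536 in the others. Most of each T cell sum was Cd2, at 1342, 1391 and 1468 in WT replicates 1 to 3 and 1519 and 1229 in DKO. The sums thus hide how far the other T cell markers differed. NK cell markers summed to 348 and 104 in the same 2 libraries, against 2.88 to 26.4 in the others. Plasma cell markers summed to 11333, 8453 and 9540.5 in WT replicates 1 to 3 and to 6837 and 7915 in DKO, where both libraries lay below WT. Myeloid markers were lowest in WT replicate 3 (329.6) and highest in DKO replicate 1 (1439), and erythroid markers stood at 226 in DKO replicate 1 against 53.7 to 78.4 elsewhere. No list of other cell types had a gene at 0 in every library.

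Of the 83 genes, 76 had a mean of at least 10 normalized counts and were tested, and none passed the adjusted threshold of 0.05. Over all 13242 genes tested with limma, 0.0% passed it. EdgeR on the recovered reads also called 0.0% of all genes, and DESeq2 called 0.219% of them, with 0 respiratory chain genes by either tool, and each had 5 lower and 1 higher at an unadjusted p under 0.05. The smallest adjusted p of a respiratory chain gene was 0.823 with limma. At an unadjusted p under 0.05, 5 of the 76 (6.58%) were lower in DKO, beside 2.37% of all genes tested. The 5 genes were Ndufs6, Ndufa8, Sdhd, Uqcrfs1 and Atp5k, which belong to complexes I, I, II, III and V. Of these, Atp5k passed the minimum of 10 through WT (mean 33.8, beside 7.58 in DKO). Only Ndufb2 was higher (1.32%, beside 3.69% of all genes). The mean was lower in DKO for 56 of the 76 (73.7%, beside 49.95% of all genes), with a median log2 fold change of -0.17 beside 0.00 over all genes. These counts and medians were not tested, and leaving out 1 library moved the median between -0.27 (without DKO replicate 2) and -0.03 (without DKO replicate 1). Without DKO replicate 1, 0 of 75 were lower at an unadjusted p under 0.05.

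**Figure D1:**
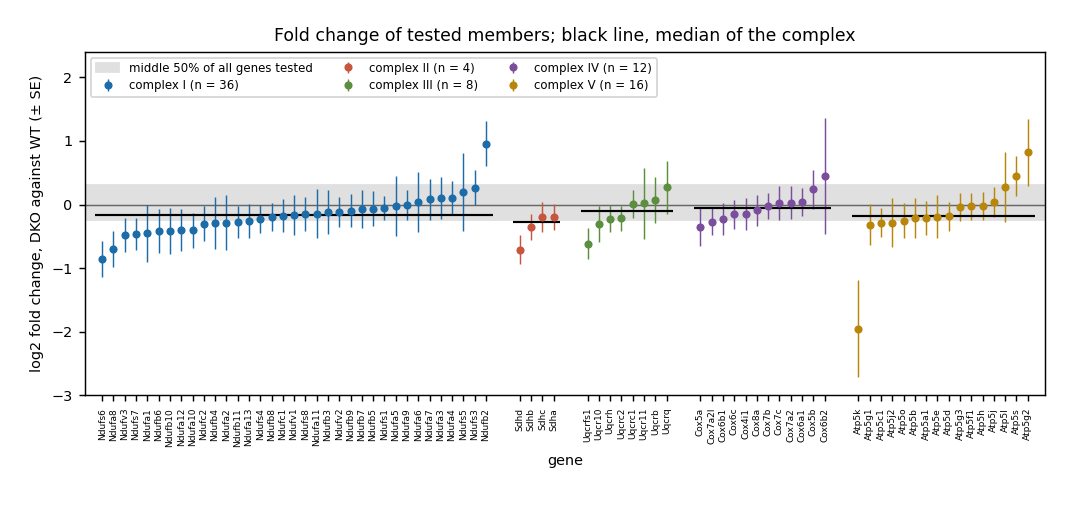
Log2 fold change of DKO against WT (y axis, log2(value + 1) scale, points with standard error) for the tested genes, grouped by complex along the x axis, with the median of each complex as a black line. The grey band holds the middle 50% of all genes tested, and Atp5k at -1.96 and Ndufb2 at 0.96 stand at the ends.

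Promoters of nuclear respiratory genes are known for sites of NRF1 and of the ETS factor GABP, and for YY1. RefSeq promoters (GRCm38.p6, 250 bases before to 50 after the start) were matched by symbol for 68 of the 83 genes, in 73 windows. Each motif was searched on both strands. The NRF1 motif GCGCATGCG was in 11.0% of the 73 windows, beside 1.75% of all 32851 windows and 3.69% of the windows of tested genes. The YY1 motif AAGATGGCG was in 9.59%, beside 1.40% and 3.16%. The ETS motif CCGGAAG was in 21.9%, beside 8.86% and 18.4%, so most of that difference from all promoters was shared by other expressed genes. The E-box CACGTG was in 9.59%, beside 7.15% and 10.0%. An NF-κB motif, GGGANTTCC, was in 2 windows, those of Cox5b and Ndufs8 (2.74%, beside 1.68% and 2.41%). Of the 5 genes that were lower at an unadjusted p under 0.05, 4 held at least 1 of the 5 motifs, as did 32 of all 68 matched genes (47.1%). Counted by window, at least 1 motif was in 18.4% of all windows and in 32.3% of those of tested genes. The windows of the 4 genes are printed 5′ to 3′ along the gene, with the motif or its reverse complement in capitals to show its place. It is YY1 in Ndufs6, NRF1 in Ndufa8, ETS in Sdhd, and NRF1 then ETS in Atp5k.
Ndufs6, chr13:73328433-73328732, minus strand: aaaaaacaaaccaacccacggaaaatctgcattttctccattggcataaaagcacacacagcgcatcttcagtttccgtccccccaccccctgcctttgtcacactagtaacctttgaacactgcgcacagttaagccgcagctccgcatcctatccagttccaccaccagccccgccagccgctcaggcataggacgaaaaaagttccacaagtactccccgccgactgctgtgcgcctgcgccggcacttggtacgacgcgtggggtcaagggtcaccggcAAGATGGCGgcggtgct
Ndufa8, chr2:36049289-36049588, minus strand: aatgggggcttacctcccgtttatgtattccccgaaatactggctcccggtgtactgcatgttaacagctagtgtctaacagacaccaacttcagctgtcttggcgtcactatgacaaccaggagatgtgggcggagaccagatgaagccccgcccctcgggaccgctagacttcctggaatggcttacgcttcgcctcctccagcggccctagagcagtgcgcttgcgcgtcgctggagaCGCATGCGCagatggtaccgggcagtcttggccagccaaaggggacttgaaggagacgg
Sdhd, chr9:50603800-50604099, minus strand: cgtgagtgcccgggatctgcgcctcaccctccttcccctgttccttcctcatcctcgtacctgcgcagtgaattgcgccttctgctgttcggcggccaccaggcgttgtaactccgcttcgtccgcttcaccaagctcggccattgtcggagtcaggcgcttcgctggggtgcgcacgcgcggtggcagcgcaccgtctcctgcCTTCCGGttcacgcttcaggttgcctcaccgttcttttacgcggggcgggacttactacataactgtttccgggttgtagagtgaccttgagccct
Atp5k, chr5:108434350-108434649, minus strand: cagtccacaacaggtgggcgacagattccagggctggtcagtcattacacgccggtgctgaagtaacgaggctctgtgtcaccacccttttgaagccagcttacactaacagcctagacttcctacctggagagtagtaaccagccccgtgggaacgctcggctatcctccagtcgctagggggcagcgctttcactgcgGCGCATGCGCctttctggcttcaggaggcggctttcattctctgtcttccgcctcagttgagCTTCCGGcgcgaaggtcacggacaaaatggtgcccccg
The windows of Uqcrfs1 and Ndufb2 held none of the 5 motifs. None of the 4 printed windows held the NF-κB letters. A match is a description of the letters only.

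Every DKO library lay below every WT library for 13 of the 76 genes (17.1%, beside 11.0% of all genes). Every DKO library lay above every WT library for 2 of them (2.63%, beside 12.5%), namely Ndufb2 and Atp5g2. Among the 13 were Ndufa8, Ndufb4, Ndufb6, Ndufb8, Ndufs6, Ndufs7 and Ndufv3 of complex I, Sdhb and Sdhd of complex II, Uqcrfs1 of complex III, Cox7a2l of complex IV and Atp5k of complex V. The DKO libraries did not contribute alike. DKO replicate 1 alone was below every WT library in 40 of 76 genes (52.6%, beside 26.3% of all genes), and above in 8 (10.5%, beside 26.5%). DKO replicate 2 alone was below in 17 of 75 (22.7%, beside 21.7%) and above in 9 (12.0%, beside 21.2%). DKO replicate 1 was also the DKO library that kept more of the targeted transcripts. Relb was at 56.9 there and at 10.7 in DKO replicate 2, and Nfkb2 at 298 and 73.5. Whether the 2 differences are linked was not tested.

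**Figure D2:**
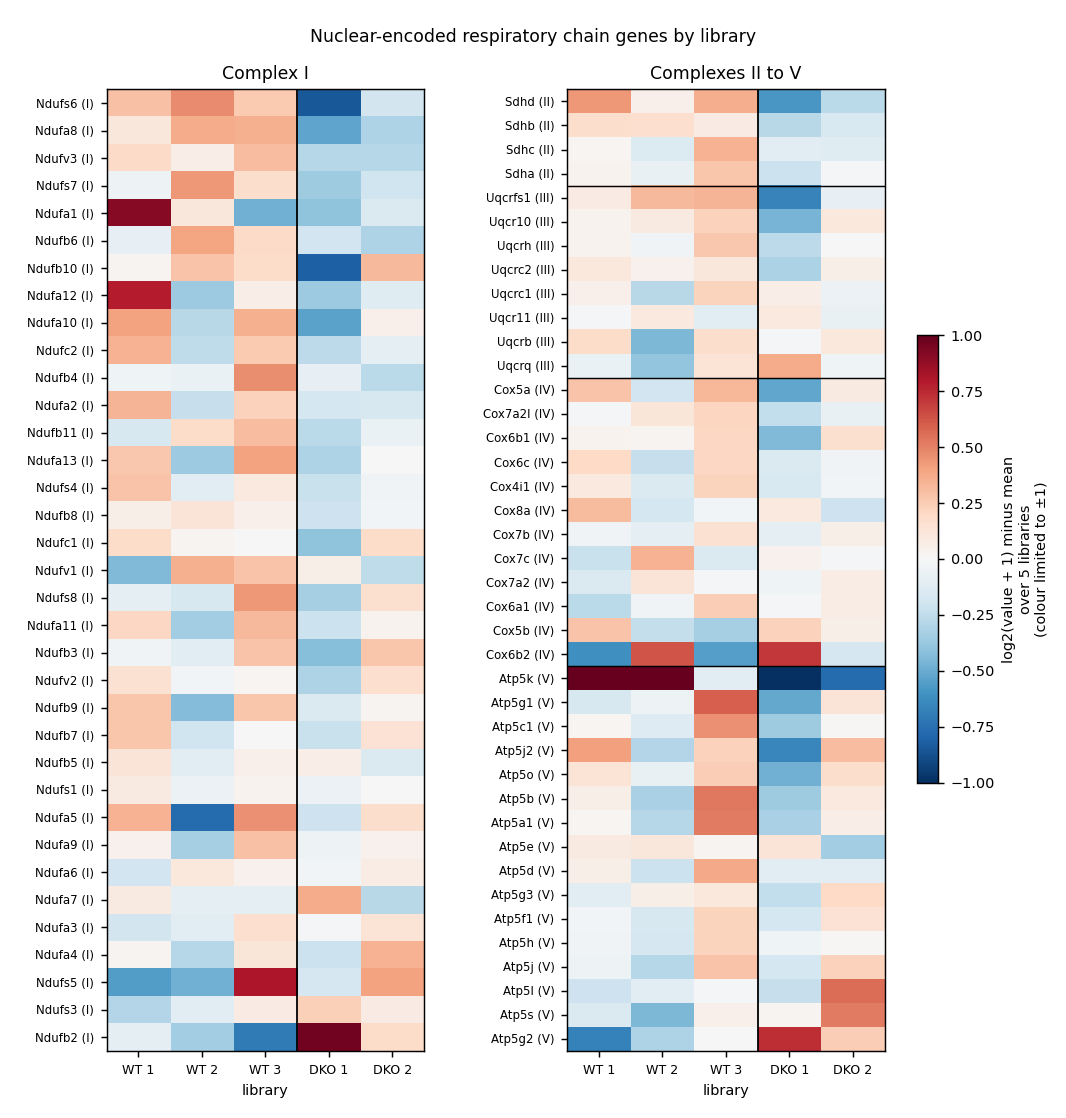
Level of the tested genes (rows, complex in brackets, ordered by fold change within a complex) in each library (columns), as log2(value + 1) minus the gene's mean over the 5 libraries, with colour limited to ±1. Blue cells gather in DKO replicate 1, the lowest library for 38 of 76 genes, and red cells in WT replicate 3, the highest for 35.

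DKO replicate 1 was the lowest library for 38 of the 76 genes (beside 21.7% of all genes). WT replicate 3 was the highest for 35 (46.1%, beside 23.0%). On average the 76 genes deviated from their own means by 0.07, -0.06 and 0.17 (log2) in WT replicates 1 to 3, and by -0.19 and 0.01 in DKO replicates 1 and 2. All genes tested deviated by -0.13 in WT replicate 3 and by 0.10 in DKO replicate 1. The order of the libraries was thus the reverse for these 2 libraries between the respiratory chain genes and the whole table. WT replicate 3 also had the highest share of mitochondrial ribosomal RNA (70.9%) and DKO replicate 1 the lowest (47.0%). For 6 of the 76 genes (7.89%, beside 2.33% of all genes) the libraries stood in the same order as that share, namely Sdha, Uqcrc2, Uqcrh, Cox4i1, Cox5a and Atp5c1. WT replicate 2 and DKO replicate 1, the libraries with more naive B cell, T cell and NK cell transcripts, were the 2 with negative mean deviations. Leaving out both left DKO replicate 2 alone against WT replicates 1 and 3. Then 54 of 75 genes had a lower mean in DKO (72.0%, beside 50.7% of all genes). The median of the 75 genes was -0.15, beside -0.01 over all genes. With the mean log2 level of the tested T cell markers as a covariate the median was -0.13. DKO replicate 1, where the 76 genes were lowest, also had the lowest plasma cell and the highest myeloid and erythroid marker sums, and the part of these in the result was not tested. In bulk RNA, fewer cells with high levels and less RNA per cell cannot be told apart.

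**Figure D3:**
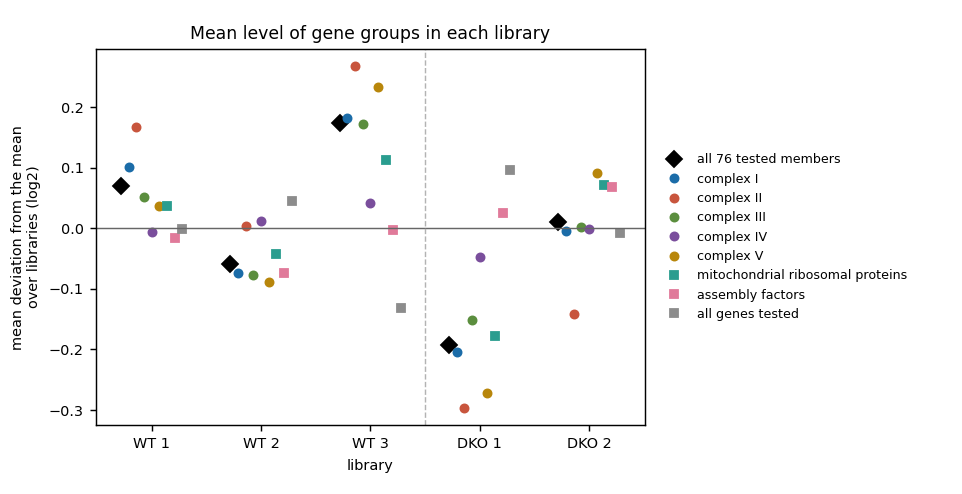
Mean deviation (y axis, log2) from each gene's own mean over the libraries, per library (x axis), for the 76 genes, each complex, mitochondrial ribosomal protein genes, assembly factors and all genes tested. The 76 genes lie highest in WT replicate 3 (0.17) and lowest in DKO replicate 1 (-0.19), where all genes lie at -0.13 and 0.10.

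Complex I oxidises NADH on an arm that reaches into the matrix and pumps protons through an arm in the membrane. Among its 36 tested genes 29 had a lower mean in DKO, with a median of -0.17. That median was -0.11 without DKO replicate 1, -0.28 without WT replicate 2 or with length and GC content corrected for, and -0.30 without DKO replicate 2. The 7 core subunits, which carry the flavin, the iron-sulfur clusters and the ubiquinone site, had a median of -0.15 (6 of 7 lower), and the 29 accessory subunits one of -0.20 (23 of 29 lower). Ndufs6, a zinc-binding accessory subunit at the base of the matrix arm, was at 403, 457 and 394 in the WT libraries against 182 and 289.9 in DKO (normalized counts here and for all genes that follow). Its groups did not overlap, and DKO replicate 1 was well under DKO replicate 2. The log2 fold change was -0.86 ± 0.28 (SE, limma, adjusted p = 0.823), and without DKO replicate 1 it was -0.52. Ndufa8, an accessory subunit on the intermembrane side, was at 207, 248 and 245 in the WT libraries against 132 and 154 in DKO. Here the 2 DKO libraries lay close together and apart from WT, at -0.70 ± 0.28 (limma, adjusted p = 0.823).

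Ndufb2, a small accessory subunit of the membrane arm, went the other way, with 155, 130.01 and 101 in the WT libraries against 325 and 188 in DKO. The DKO libraries were both above WT but differed from each other by more than the whole WT range. The log2 fold change was 0.96 ± 0.35 (limma, adjusted p = 0.823), and without DKO replicate 1 it was 0.57.

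Among the core subunits, Ndufs7, which holds the last iron-sulfur cluster before ubiquinone, was at 318, 445 and 372 in the WT libraries against 257 and 287 in DKO (-0.46 ± 0.26). Its groups did not overlap, and it fell short of the unadjusted threshold. Ndufs3 was the single core subunit with a higher mean in DKO, at 169, 193 and 220.1 in the WT libraries against 245 and 219.7 in DKO (0.27 ± 0.28), and its groups overlapped. Ndufv3, an accessory subunit of the NADH-binding module, was at 228, 208 and 247 in the WT libraries against 163 and 164 in DKO (-0.48 ± 0.27). Ndufa10, on the matrix side of the membrane arm, was at 2475, 1544 and 2389.9 in the WT libraries against 1289.9 and 1939 in DKO (-0.40 ± 0.28), with WT replicate 2 below DKO replicate 2. Ndufa4, named for complex I and now placed in complex IV, was at 435, 349.8 and 464 in the WT libraries against 368 and 541 in DKO (0.11 ± 0.27). The remaining complex I genes had log2 fold changes between -0.45 (Ndufa1) and 0.19 (Ndufs5), and none had an unadjusted p under 0.05.

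**Figure D4:**
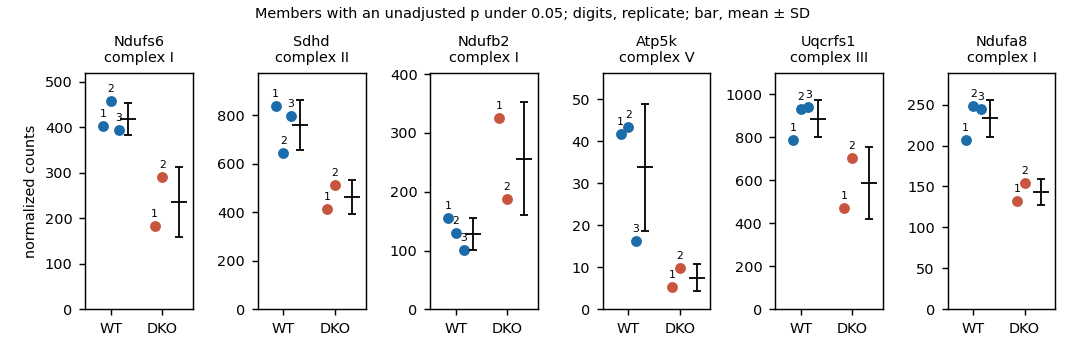
Normalized counts (y axis, from 0) in each library for the 6 genes with an unadjusted p under 0.05, with the replicate number beside each point and the mean ± SD as a bar (WT, n = 3; DKO, n = 2). In the 5 lower genes both DKO points lie under all WT points, as with Ndufa8 at 132 and 154 against 207 to 248, and in Ndufb2 both lie above.

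Complex II is succinate dehydrogenase, which also serves the citric acid cycle and has no subunit from the mitochondrial genome. All 4 of its genes had a lower mean in DKO, with a median of -0.28. Sdhd, one of the 2 membrane anchors, was at 838, 643 and 798 in the WT libraries against 413 and 514 in DKO, so that the groups did not overlap (-0.71 ± 0.23; limma, adjusted p = 0.823). Sdhb, the iron-sulfur subunit, was at 692, 688 and 646 in the WT libraries against 505 and 548 in DKO (-0.36 ± 0.21), again without overlap. Sdha, the flavoprotein that oxidises succinate, was at 5131, 4754 and 6072 in the WT libraries against 4314 and 4959 in DKO (-0.19 ± 0.20), with DKO replicate 2 inside the WT range. Sdhc, the other anchor, was at 559.9, 502 and 702 in the WT libraries against 511 and 506 in DKO (-0.20 ± 0.23), also inside it. Without DKO replicate 1 the median of the 4 was -0.25, and without WT replicate 3 it was -0.24.

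In complex III 4 of 8 genes had a lower mean, with a median of -0.11. It was -0.04 without DKO replicate 1, -0.19 without WT replicate 2, -0.17 without DKO replicate 2 and -0.26 with the length and GC correction. The Rieske protein Uqcrfs1, which carries the iron-sulfur cluster that takes electrons from ubiquinol, was at 789, 931 and 943 in the WT libraries against 469 and 705 in DKO. Both DKO libraries were below WT, DKO replicate 1 by far more (-0.62 ± 0.24; limma, adjusted p = 0.823). Without DKO replicate 1 its log2 fold change was -0.33. The core protein Uqcrc2 was at 1659, 1583 and 1662 in the WT libraries against 1233 and 1602 in DKO (-0.22 ± 0.20), and the other core protein, Uqcrc1, had a log2 fold change of 0.01. The hinge protein Uqcrh was at 995, 946 and 1167 in the WT libraries against 808 and 968 in DKO (-0.22 ± 0.21). Among the other small subunits Uqcr10 was at 249, 259 and 286 in the WT libraries against 176 and 262 in DKO (-0.30 ± 0.28). Uqcrq was at 59.95, 47.5 and 69.2 in the WT libraries against 81.4 and 61.1 in DKO (0.27 ± 0.42), and Uqcrb at 125, 80.5 and 125 in the WT libraries against 109 and 119 in DKO (0.07 ± 0.36). The groups of the other 7 complex III genes overlapped.

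Complex IV, cytochrome c oxidase, had a lower mean in DKO for 7 of 12 tested genes and a median of -0.06. That median was -0.01 without DKO replicate 1, and -0.20 both without WT replicate 2 and with the length and GC correction. No gene had an unadjusted p under 0.05. Cox7a2l, which links complexes III and IV into supercomplexes, was at 708, 773 and 827 in the WT libraries against 599 and 676 in DKO, the single complex IV gene without overlap (-0.27 ± 0.21). Cox5a, a matrix-side subunit, was at 373, 268 and 385 in the WT libraries against 214 and 326 in DKO (-0.35 ± 0.30), and Cox5b, its neighbour, at 214, 149 and 139 in the WT libraries against 206 and 183 in DKO (0.24 ± 0.31). Cox6b1, which faces the intermembrane space, was at 566, 563 and 638 in the WT libraries against 407 and 618 in DKO (-0.23 ± 0.25). Cox6c was at 745, 553 and 749.6 in the WT libraries against 585 and 631 in DKO (-0.15 ± 0.23).

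Several complex IV subunits come in isoforms from separate genes, whose shares per kilobase of transcript are given as the range over the 5 libraries. The widespread form made up nearly all of most groups. Cox4i1 took 96.5 to 100% of Cox4i1 plus Cox4i2, a form best known from lung. Cox6a1 took 99.1 to 100% against the heart and muscle form Cox6a2, and Cox6b1 took 94.6 to 98.6% against the testis form Cox6b2. Cox8a took 99.6 to 100% against Cox8b and Cox8c. Cox7b took all reads of its pair, with Cox7b2 at 0 reads in every library. In the Cox7a group, Cox7a2l took 61.3 to 67.9% and Cox7a2 31.3 to 38.5%, and the heart and muscle form Cox7a1 stayed under 0.937%. Cox7a2l was lower and Cox7a2 slightly higher as a share in both DKO libraries than in any WT library, which was not tested. The minor forms rest on very few reads: at most 11 for Cox4i2, 12 for Cox6a2, 20 for Cox6b2 and 4 for Cox7a1 in any library.

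**Figure D5:**
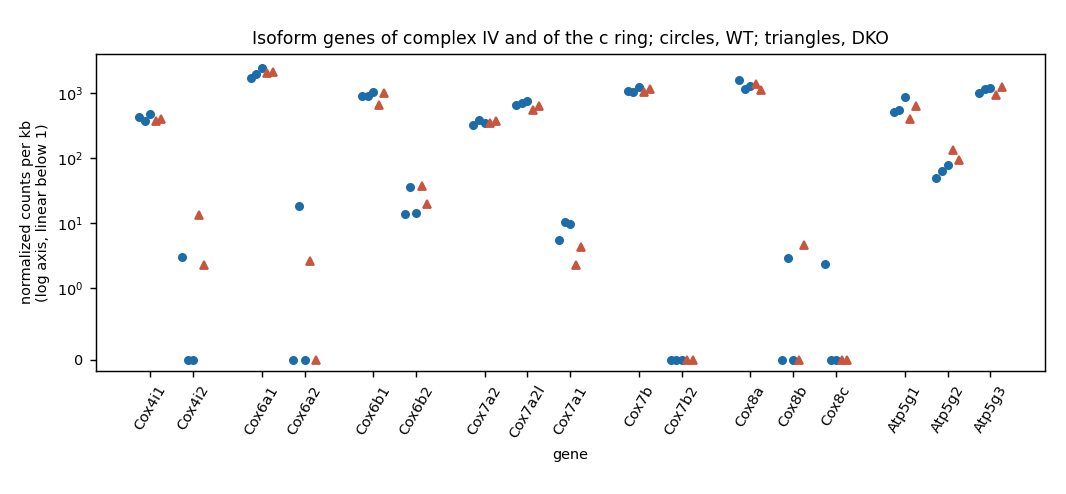
Normalized counts per kilobase (y axis, log scale, linear below 1) of the isoform genes of complex IV and of the c ring of complex V (x axis), with WT libraries as circles and DKO libraries as triangles. Cox6a1 lies near 2060 while Cox6a2, Cox4i2, Cox8b and Cox8c lie far lower, at 0 in some libraries and above it in others. The 3 c ring genes keep their order in every library.

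The untested genes were those with a mean under 10. They were Cox4i2, Cox6a2, Cox7a1, Cox7b2, Cox8b and Cox8c of complex IV and Atp5l2 of complex V. Cox6a2 had 12.4 normalized counts in WT replicate 2 and 1.75 in DKO replicate 1, and 0 in the other 3 libraries. Cox4i2 had 9.63 in DKO replicate 1 and at most 2.14 elsewhere. Both peaks fell in the libraries with more transcripts of other lymphocytes, and whether these cells were their source was not tested.

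Complex V had a lower mean in DKO for 12 of 16 tested genes, with a median of -0.19. All 5 genes of the F1 head, the part that makes ATP (Atp5a1, Atp5b, Atp5c1, Atp5d and Atp5e), had a lower mean, between -0.28 and -0.19, but none had groups that did not overlap. Atp5b, the catalytic beta subunit, was at 43853, 33718 and 60755 in the WT libraries against 32937 and 45126 in DKO (-0.22 ± 0.31), so the WT libraries spread more widely than the groups differed. Atp5c1, the rotating gamma subunit, was at 3576, 3231 and 4847 in the WT libraries against 2771 and 3567 in DKO (-0.28 ± 0.24). The median of the complex was 0.04 without DKO replicate 1 and 0.00 without WT replicate 3, so its lower median depended on these 2 libraries. Single genes, such as Atp5k, did not all follow the median.

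Atp5k, subunit e of the membrane part, had the lowest fold change of the 76 genes. The WT libraries gave 41.8, 43.3 and 16.3 (from 39, 42 and 17 reads) and the DKO libraries 5.25 and 9.91 (from 6 and 12 reads). The DKO libraries lay under WT, and WT replicate 3 was nearer to DKO than to the other WT libraries. The log2 fold change was -1.96 ± 0.76 (limma, adjusted p = 0.823), and it ranged from -2.62 to -1.32 over 18 alternatives. Its DKO mean of 7.58 was under the minimum for testing, which it passed through WT. A single near-identical pseudogene of Atp5k is annotated, and how the authors assigned shared reads is not given.

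The c ring is made of 1 protein encoded by 3 genes that differ in their import signals. Per kilobase, Atp5g3 took 55.5 to 65.0% of the sum, Atp5g1 27.6 to 40.9% and Atp5g2 3.06 to 9.04%. Atp5g1 was at 308, 332 and 522 in the WT libraries against 242 and 377 in DKO (-0.32 ± 0.32), and Atp5g3 at 730.1, 821 and 849 in the WT libraries against 666 and 909 in DKO (-0.04 ± 0.22). Atp5g2 was at 21.4, 27.9 and 34.6 in the WT libraries against 58.7 and 41.3 in DKO, with no overlap (0.82 ± 0.53). Its values rest on 20 to 67 reads per library. The share of Atp5g2 was 3.06 to 3.66% in WT and 9.04 and 4.69% in DKO. Atp5g1 has annotated transcripts from 596 to 4715 bases and Atp5g2 from 441 to 731, so the shares depend on the transcript assumed. Each of these genes has 2 near-identical pseudogenes in the annotation. Of the peripheral stalk, which holds the head still, Atp5o was at 465, 400.3 and 501 in the WT libraries against 302 and 478 in DKO (-0.25 ± 0.27). Atp5s, a coupling factor, was at 155, 125 and 178 in the WT libraries against 174 and 245 in DKO (0.45 ± 0.32).

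Per kilobase of transcript, Atp5b stood far above the other genes, at 24065 normalized counts per kilobase in WT and rank 32 of the 13051 genes with a length. Next came Atp5a1 at 3911, Atp5c1 at 3331 and Atp5j at 2356. Atp5b alone gave 40.6 to 48.0% of the summed value of the 83 genes in a library. The ATP synthase head holds alpha and beta subunits in equal number, yet the level of Atp5b per kilobase was 6.28, 5.97 and 6.17 times that of Atp5a1 in WT and 6.01 and 6.25 times in DKO. The ratio of these genes thus moved by far less than either level did. For Sdha and Sdhb, which also pair in equal number, the ratio was 2.72 to 3.70 over the libraries. Within a complex, WT means per kilobase ran from 66.1 (Ndufa6) to 1860 (Ndufb9, at 1505, 918 and 1505 in the WT libraries against 1124 and 1269.5 in DKO) in complex I and from 185.5 (Sdhc) to 1834 (Sdha) in complex II. They ran from 60.4 (Uqcr11) to 1894 (Uqcrh) in complex III, from 21.3 (Cox6b2) to 2060 (Cox6a1, at 978, 1153 and 1397 in the WT libraries against 1163 and 1237 in DKO) in complex IV, and from 52.9 (Atp5l) up to Atp5b in complex V. The subunits of a complex stand in fixed proportions in the protein, while their transcripts spanned 9.89-fold to 455-fold. Atp5l has 9 near-identical pseudogenes in the annotation, and in all 21 of the 76 genes have at least 1, so levels of these are uncertain.

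The respiratory chain genes are short, with a median of 760.5 bases beside 2542 over all genes with a length, and the fold change varied with length in the whole table. Among genes of up to 500 bases the median log2 fold change was 0.21, beside 0.02 for the 9 respiratory chain genes of that size. From 500 to 700 bases it was 0.08 beside -0.08 (24 genes), and from 1000 to 1500 bases -0.07 beside -0.26 (13 genes). After a correction for length and GC content, 67 of 76 genes had a lower mean, with a median of -0.25 beside -0.06 over all genes, 5 were lower at an unadjusted p under 0.05, and none was called.

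Other genes of oxidative phosphorylation were read beside them. Of the 13 protein genes of the mitochondrial genome 11 had a lower mean in DKO, with a median of -0.36, and none had an adjusted or unadjusted p past the thresholds. The mean deviation of these 13 was -0.51 in DKO replicate 1 and 0.40 in WT replicate 1. mt-Nd1, a complex I subunit, was at 147378, 103857 and 125043 in the WT libraries against 71562 and 101790.0 in DKO, without overlap (-0.54 ± 0.33). The deposited values of mt-Co2, mt-Co3, mt-Atp6, mt-Atp8, mt-Nd3 and mt-Nd4l stayed at or below 166 in every library while the lowest value of the other 7 was 8433, and the reason was not tested. The count, the median and the deviations of the 13 include these low genes, and the median is the value of mt-Nd3. Among the other 7, log2 fold changes ran from -0.54 (mt-Nd1) to 0.05 (mt-Nd4). Cycs, the cytochrome c that carries electrons from complex III to IV, was at 332, 255 and 406 in the WT libraries against 271 and 341 in DKO (-0.09 ± 0.28).

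Assembly factors, which build the complexes but are not part of them, had no shift to lower values: 18 of 40 tested had a lower mean, with a median of 0.06. Coa5, a complex IV factor, was at 2110.1, 2437 and 2600.4 in the WT libraries against 1707 and 1787 in DKO (-0.44 ± 0.19), and Cox16, another, at 80.3, 55.7 and 51.9 in the WT libraries against 110.3 and 109 in DKO (0.83 ± 0.39). Of 17 regulators of mitochondrial biogenesis 8 had a lower mean, and their median was 0.02. Among them Polg2, the accessory subunit of the mitochondrial DNA polymerase, was at 178, 246 and 107 in the WT libraries against 319 and 308 in DKO (0.90 ± 0.37). For the mitochondrial ribosomal proteins 47 of 74 had a lower mean (median -0.05), and they deviated by -0.18 in DKO replicate 1. Mrps10 was at 381, 378 and 342 in the WT libraries against 653 and 505 in DKO (0.65 ± 0.24), and Mrpl54 at 195, 134 and 186 in the WT libraries against 84.9 and 118 in DKO (-0.75 ± 0.34). Ndufab1, the acyl carrier subunit of complex I that the name patterns miss, was at 338, 257 and 315 in the WT libraries against 384 and 511 in DKO (0.55 ± 0.26). No gene of these lists passed the adjusted threshold.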

How the data were processed

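The authors deposited 1 table with a signal per gene and library: read counts divided by a scaling factor, since in each library at least 99.9947% of values above 0 came out as whole reads, within 0.01, after division by the smallest step. Tools listed in the submitters' processing notes are TopHat2 2.0.4, Cufflinks 2.0.2 and CASAVA 1.8.2, with build mm9. How reads were counted, on which annotation and strand, and how the scaling was set is not given in the sources used here. Per the labels' protocols, RNA was amplified with Ovation RNA-Seq System V2.

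Genes with a mean of at least 10 were tested with limma 3.58.1 (R 4.3.3) on log2(value + 1), two-sided, with a mean-variance trend, Benjamini-Hochberg adjustment over all genes and a threshold of 0.05. That scale understates changes of low genes. EdgeR 4.0.16 and DESeq2 1.42.0 on recovered reads were alternatives, beside other pseudocounts, minimum values and scalings. Others were the replicate number as a block, libraries left out, and a length and GC correction with splines of 5 degrees of freedom. The mean log2(value + 1) of the tested T cell markers served as a covariate in a further alternative. Of the names, 37492 matched GENCODE M21 or RefSeq and 1432 did not, and 408 rows carried a repeated name. The scripts were tested on simulated data. A gene that is in the counts and medians is not reported here and is left out of the plots of single genes.

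The genes and lists were chosen with earlier results of these data known. Named genes are, by unadjusted p, 6 lower and 3 higher in complex I, 4 lower and 2 higher in complexes III, IV and V, all of complex II, the highest per length, the isoforms, and up to 4 per other list. Other genes, such as Ndufa1 or Uqcrc1, were named after their values were seen. The transcript behind each length (APPRIS principal, best support, shortest of ties) replaced 2 earlier rules after results were seen, and it bears only on values per kilobase and the length and GC correction. The role groups, counts for single DKO libraries, pseudogene limits (95% identity over 100 bases) and promoter background of tested genes were likewise added after seeing the data.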

Additional observations from a re-analysis of the deposited data

How the results depend on the processing

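In all 19 alternatives 0 respiratory chain genes were called, the median log2 fold change stayed below 0 and most genes had a lower mean in DKO. Leaving out 1 library gave 0 to 4 genes lower at an unadjusted p under 0.05 (main value 5), medians of -0.27 to -0.028, and 18 to 48 genes without overlap (main value 15). Fewer libraries make such gaps more frequent: without WT replicate 1, 15 genes lay below and 3 above (beside 17.4% and 18.8% of all genes), and without DKO replicate 2, 40 below and 8 above (beside 26.3% and 26.5%). Leaving out WT replicate 2 and DKO replicate 1 together gave 0 genes at that p and 51 without overlap, 39 below and 12 above, beside 32.4% and 30.5% of all genes.

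Same-numbered WT and DKO libraries deviated from their group means with r = 0.005 and -0.28 over genes. The deviations of the 2 DKO libraries mirror each other, so these values cannot decide whether libraries were paired. The labels do not say whether a number marks a shared litter or day. With the replicate block, which leaves 1 library of WT without a partner, 36 genes of the whole table and 0 respiratory chain genes were called, the median was -0.07, and 2 genes were lower at an unadjusted p under 0.05. With the block and the length and GC correction that count was also 2.

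None of the 39 tested respiratory chain genes and 22 other genes taken by the naming rule was called in the main test, and in 11 of the 19 alternatives some of the 39 had a mean difference of the opposite sign. The cause was not tested. The log2 fold changes of opposite sign were, with quantile scaling, Cox7b 0.012. With the T cell markers as covariate there was Cox7b 0.00069. With the replicate block they were Ndufb9 0.023, Cox7b 0.047, Atp5b 0.0037, Atp5g3 0.0070, Cycs 0.065. With the block and the correction they were Cox7a2 -0.082, Cox7b 0.019, Atp5b 0.028, Cycs 0.12. With the length and GC correction alone they were Ndufa4 -0.17, Uqcrb -0.21, Cox6a1 -0.050, Cox7a2 -0.13, Atpif1 -0.14. Without both libraries rich in other lymphocytes they were Uqcrb -0.072, Uqcrq -0.074, Cox6b1 0.039, Atp5g3 0.21, mt-Nd3 0.068, Usmg5 0.16, Atpif1 -0.12. Leaving out each library in turn gave ranges that crossed 0 for Ndufb9 -0.33 to 0.023, Cox6a1 -0.081 to 0.18, Cox7a2 -0.037 to 0.10, Cox8a -0.24 to 0.058, Ndufa4 -0.17 to 0.39, Uqcrb -0.14 to 0.18, Atpif1 -0.13 to 0.16, Cox7b -0.10 to 0.049, Atp5b -0.44 to 0.011, Atp5g3 -0.26 to 0.19, Cycs -0.27 to 0.070, Cox6b1 -0.53 to 0.071, Atp5o -0.58 to 0.077, mt-Nd3 -0.81 to 0.082, Usmg5 -0.42 to 0.22. Ndufs6, Ndufa8, Sdhd, Uqcrfs1, Atp5k and Ndufb2 kept their sign wherever they were tested. They were picked by their p in these same data, and their groups did not overlap. Leaving out libraries therefore could not change the sign of their mean difference.

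The median standard error of a tested respiratory chain gene was 0.27 (log2). Genes with few reads, such as Atp5k, Cox6b2 and Ndufs5, are also limited by counting error.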
